A study of Homo sapiens with 16 samples.

Results

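The shared response to silencing of CD28 and of CD86 in human myeloma cells comprised 157 of the 11348 genes tested, 62 higher and 95 lower with the silencing hairpins. Members were the genes that passed a pooled comparison of 8 silenced against 8 control libraries and whose values under both hairpins lay on the same side of the mean of the controls in at least 3 of the 4 cell backgrounds; GAPDH was left out. Levels are in FPKM, the fragments of a gene divided by its exon length and by the total of the library. Differences are between values of log2(FPKM + 1), where the added 1 makes the change of a scarce gene look smaller than it is. A gene passed when its limma p-value, adjusted by Benjamini-Hochberg over all tested genes, was under 0.05.

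The 4 backgrounds were the myeloma lines MM.1s, RPMI8226 and KMS18, without overexpression, and RPMI8226 overexpressing Mcl1, an anti-apoptotic member of the BCL2 family. Every background was transfected with the empty vector (pLK0.1, here Vec) or with a short hairpin RNA (shRNA) directed at Gapdh, CD28 or CD86, and each of the 16 combinations was sequenced in 1 library. Vec and Gapdh shRNA were the controls. The backgrounds therefore served as the replicates, the Mcl1 line is a single derivative of RPMI8226 and not independent of it, and p-values reflect only how these libraries scatter. The same Vec and shRNA labels recurred in every background, and the pooled comparison treats their libraries as separate. Its p-values therefore do not extend to other hairpins or other controls. The sources used here do not give the hairpin sequences, the number of hairpins per target or the strand setting of the counting. An effect of a hairpin on genes other than its target was not tested, and reads of overlapping or antisense genes cannot be told apart.

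CD28 is a co-stimulatory receptor known from T cells and also carried by plasma cells and myeloma cells, and CD86 is one of its ligands. Signals from CD28 run through PI3K and NF-kB pathways and are known to favour the survival of plasma cells. Plasma cells, from which myeloma arises, devote much of their metabolism to making, folding and exporting antibody, under transcription factors such as IRF4, PRDM1 and XBP1.

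Reads in genes numbered 3914513 to 5900955 per library, and the CD28 shRNA library was the shallowest of each background (3914513 to 4577443 reads). With every library thinned to 3914513 reads 137 genes were shared. Plasma cell markers summed to 949 to 2171 FPKM in control and 712 to 1947 FPKM in silenced libraries, and none of 10 was at 0. The markers of other cells summed in control and silenced libraries to 16.6 to 105 and 19.7 to 121 FPKM (B cells), 1.53 to 18.1 and 1.74 to 26.3 FPKM (T cells), 0.826 to 89.5 and 0.885 to 85.9 FPKM (myeloid cells), 0.0597 to 0.582 and 0.127 to 0.927 FPKM (stromal cells), and 6.37 to 237 and 7.59 to 223 FPKM (packaging or epithelial lines). KRT19, NEFM, CD3D, CD163, FCGR3A, MPO, COL3A1, DCN, LUM, THY1 and POSTN were at 0 in all libraries. MCL1 stood at 127 to 173 FPKM in the 4 libraries of the Mcl1 line and at 49.6 to 62.7 FPKM in those of RPMI8226.

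The targeted genes were examined first. In MM.1s, CD28 measured 65.7 FPKM with Vec, 78.4 with Gapdh shRNA, 42.7 with CD28 shRNA and 58.5 with CD86 shRNA. In the same order it measured 70.6, 77.1, 56.0 and 69.9 FPKM in RPMI8226, 45.8, 47.7, 32.4 and 48.9 in KMS18, and 52.9, 49.7, 35.7 and 52.8 in the Mcl1 line. The library with CD28 shRNA was thus the lowest of each background for CD28. CD86 measured 3.18, 6.46, 8.97 and 1.40 FPKM in MM.1s, 6.92, 6.51, 11.4 and 5.28 in RPMI8226, 2.49, 3.45, 3.10 and 1.10 in KMS18, and 5.796, 5.46, 12.3 and 2.86 in the Mcl1 line. CD86 was lowest with its own hairpin in all backgrounds and highest with CD28 shRNA in all but KMS18, on 18 to 186 reads per library. Against both controls, CD28 fell under CD28 shRNA by 0.54 on the log2 scale (adjusted p = 0.000224), and CD86 fell under CD86 shRNA by 0.80 (adjusted p = 0.0166) and rose under CD28 shRNA by 0.64 (adjusted p = 0.0295). Each target was thus lower with its own hairpin, and CD86 was higher with CD28 shRNA by an amount near that of its own fall. In the pooled comparison neither CD28 (-0.30, adjusted p = 0.16) nor CD86 (-0.08, adjusted p = 0.928) passed. GAPDH was left out, so the level of the target in the Gapdh shRNA libraries is not given.

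The shared genes moved by modest amounts. The 157 genes that passed were 1.38% of those tested, the 62 that rose 0.546% and the 95 that fell 0.837%, and 1842 genes had an unadjusted p under 0.05. All genes that passed also met the requirement of 3 concordant backgrounds (140 in 4 and 17 in 3), which 2605 of all tested genes (23%) met. The median change was 0.37 for the genes that rose (0.18 to 0.95) and -0.42 for those that fell (-1.90 to -0.18), against 0.01 over all tested genes. Of the 157 genes, 33 changed by more than 0.5 and 3 by more than 1. Of those 3, SNORD34 and MIR138-1 had at most 12 and 2 reads in a library, and SNORA80E, the largest rise, at most 4, too few to size a change, which leaves SLC7A5 (-1.44) past 1. Genes that fell were also more abundant, with a median of 23.1 FPKM against 8.64 FPKM for those that rose and 9.41 FPKM over all tested genes. At the edge of the threshold, PSPH (adjusted p = 0.0483), VPS26B (0.0485) and ARF1 (0.0485) lay just inside, and FAM3C (0.0507), MRPL4 (0.0511) and PPCS (0.0517) just outside.

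In 105 of the 157 shared genes, 43 that rose and 62 that fell, both hairpins lay beyond both controls in all 4 backgrounds, as in 206 of all tested genes (1.82%; 0.784% higher and 1.03% lower). The number of genes that passed depended on every background. It was 3 without MM.1s, 7 without RPMI8226, 1 without KMS18 and 1 without the Mcl1 line, 0 with Vec as the only control and 1 with Gapdh shRNA as the only control. Leaving out a single control library gave 31 to 75 genes, and leaving out the CD28 shRNA library of RPMI8226 or the CD86 shRNA library of RPMI8226, KMS18 or the Mcl1 line gave 94, 103, 71 and 102. In each of these settings all 157 genes kept their sign and an unadjusted p under 0.05. The settings reuse libraries that chose the genes, so this is no separate evidence for them. For a single gene, an exact two-sided permutation test within backgrounds (1296 arrangements) cannot give a p under 0.00154. Each of the 206 genes with both hairpins beyond both controls in all 4 backgrounds gets that value. For shared genes it therefore restates their concordance and is no further evidence.

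**Figure D1:**
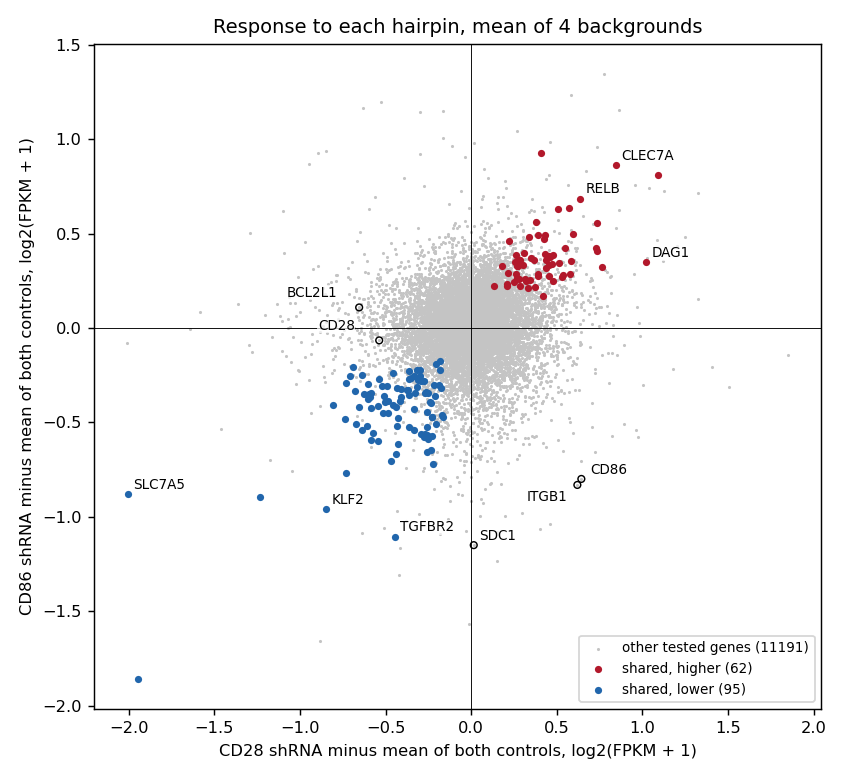
Difference from the mean of both controls under CD28 shRNA (x axis) and under CD86 shRNA (y axis) in log2(FPKM + 1), each the mean of 4 backgrounds; grey points are tested genes that are not shared, red the 62 shared genes that rose, blue the 95 that fell, and open circles named genes that are not shared. SLC7A5 lies furthest to the left at -2.00 and -0.88, while ITGB1 (0.62 and -0.83), SDC1 (0.01 and -1.15) and BCL2L1 (-0.65 and 0.11) lie off the diagonal; both axes use the same control libraries.

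TMEM214, a membrane protein of the endoplasmic reticulum, was the most regular of the shared genes. Its control libraries held 45.6 to 56.6 FPKM (median 52.8) and its silenced libraries 31.1 to 38.0 FPKM (median 33.7). It was the only gene of the 11348 whose 8 silenced libraries all lay beyond all 8 control libraries, whatever the background (0.00881% of those tested). It fell by 0.59 (SE 0.05, adjusted p = 0.000123, exact permutation p = 0.00154), by 0.58 under CD28 shRNA and by 0.59 under CD86 shRNA. TMEM214 also passed without each background in turn and with Gapdh shRNA as the only control, but not with Vec as the only control. These settings reuse the libraries in which TMEM214 was found.

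Amino acid uptake was among the groups with the most shared falls: 4 of 19 tested amino acid transporters fell (21.1%) and none rose, with a median of -0.18 over the 19. Of all tested genes 0.837% fell and 0.546% rose, the shares to set beside the counts of this and later lists. A list with only 1 shared gene shows little about the list. SLC7A5, the catalytic subunit of LAT1, the importer of leucine and other large neutral amino acids, held 46.7 FPKM with Vec and 40.2 with Gapdh shRNA in MM.1s against 8.47 with CD28 shRNA and 18.3 with CD86 shRNA. The corresponding values were 83.4, 79.9, 23.6 and 63.5 FPKM in RPMI8226, 276, 312, 73.4 and 119 in KMS18, and 120, 123, 28.4 and 76.5 in the Mcl1 line. Both hairpins lay below both controls in every background, and CD28 shRNA lay below CD86 shRNA in each. The pooled change was -1.44 (SE 0.22, adjusted p = 0.0128, exact permutation p = 0.00154). It was -2.00 under CD28 shRNA and -0.88 under CD86 shRNA, a difference of 1.13 (SE 0.14, adjusted p = 0.000171), so that the size of the change, unlike its direction, depended on the hairpin. Processed and partial copies of SLC7A5 exist in the genome, and reads may be split between them.

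SLC3A2, the CD98 heavy chain that carries LAT1 to the cell surface, held 50.6 to 243 FPKM in controls (median 106) and 41.2 to 141 FPKM in silenced libraries (median 77.1). The ranges overlap across backgrounds and were apart within each of them. SLC3A2 fell by 0.47 (SE 0.08, adjusted p = 0.0193), by 0.48 under CD28 shRNA and by 0.45 under CD86 shRNA. The glycine transporter SLC6A9 held 1.86 to 16.9 FPKM in controls (median 7.27) and 0.923 to 10.5 FPKM in silenced libraries (median 3.41). It fell by 0.75 (SE 0.16, adjusted p = 0.0362, exact permutation p = 0.00309), with 1 overlap, in MM.1s, where CD86 shRNA (2.01 FPKM) lay above Gapdh shRNA (1.86 FPKM). The mitochondrial glutamate carrier SLC25A22 fell by 0.32 (SE 0.07, adjusted p = 0.0468).

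Of 24 genes of serine, one-carbon and asparagine synthesis 3 fell (12.5%, against 0.837% of all tested genes) and none rose. The median was -0.16. PHGDH, the first enzyme of serine synthesis, ranged from 1.39 to 94.8 FPKM in controls and from 0.637 to 91.8 FPKM in silenced libraries. Within every background both hairpins lay below both controls, and the pooled change was -0.57 (SE 0.11, adjusted p = 0.0275). In KMS18 the margin of CD28 shRNA was narrow for PHGDH (91.8 FPKM against 93.0 with Vec and 94.8 with Gapdh shRNA). PSPH, the last enzyme of the same pathway, fell by 0.41, and SHMT2, the mitochondrial enzyme that passes a carbon unit from serine to folate, by 0.31 (adjusted p = 0.0468). For PSPH in KMS18, CD28 shRNA (22.3 FPKM) lay above Vec (21.7 FPKM) and Gapdh shRNA (20.8 FPKM). GPT2, a mitochondrial alanine aminotransferase, fell by 0.57 (SE 0.11, adjusted p = 0.0242). It was the only one that passed on a list of 27 ATF4 regulators and stress targets (3.7%, median -0.21). SLC7A5, SLC3A2, PHGDH, PSPH and SHMT2 were counted in other lists and not in this one, so its count depends on how the lists were divided. The median of the list was -0.09 under CD28 shRNA and -0.31 under CD86 shRNA. None of 23 cytosolic aminoacyl-tRNA synthetases passed, although 21 had estimates below 0 (median -0.18). The control hairpin moved in the same direction for these lists. Medians for Gapdh shRNA minus Vec were -0.13 (serine and one-carbon genes), -0.09 (ATF4 targets) and -0.06 (synthetases). In the same order the pooled medians were -0.16, -0.21 and -0.18, so the serine and one-carbon list moved nearly as far between the controls.

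ME2, the mitochondrial malic enzyme, held 18.1 to 31.8 FPKM in controls (median 22.4) and 9.70 to 21.0 FPKM in silenced libraries (median 14.9), and fell by 0.61 (SE 0.10, adjusted p = 0.0129). In the Mcl1 line CD86 shRNA (21.0 FPKM) and Gapdh shRNA (20.9 FPKM) were level for ME2. SUCLG2, a subunit of succinyl-CoA ligase, fell by 0.59 (SE 0.10, adjusted p = 0.0129) and was the only one of 24 citric acid cycle genes that passed (4.17%; median -0.03).

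**Figure D2:**
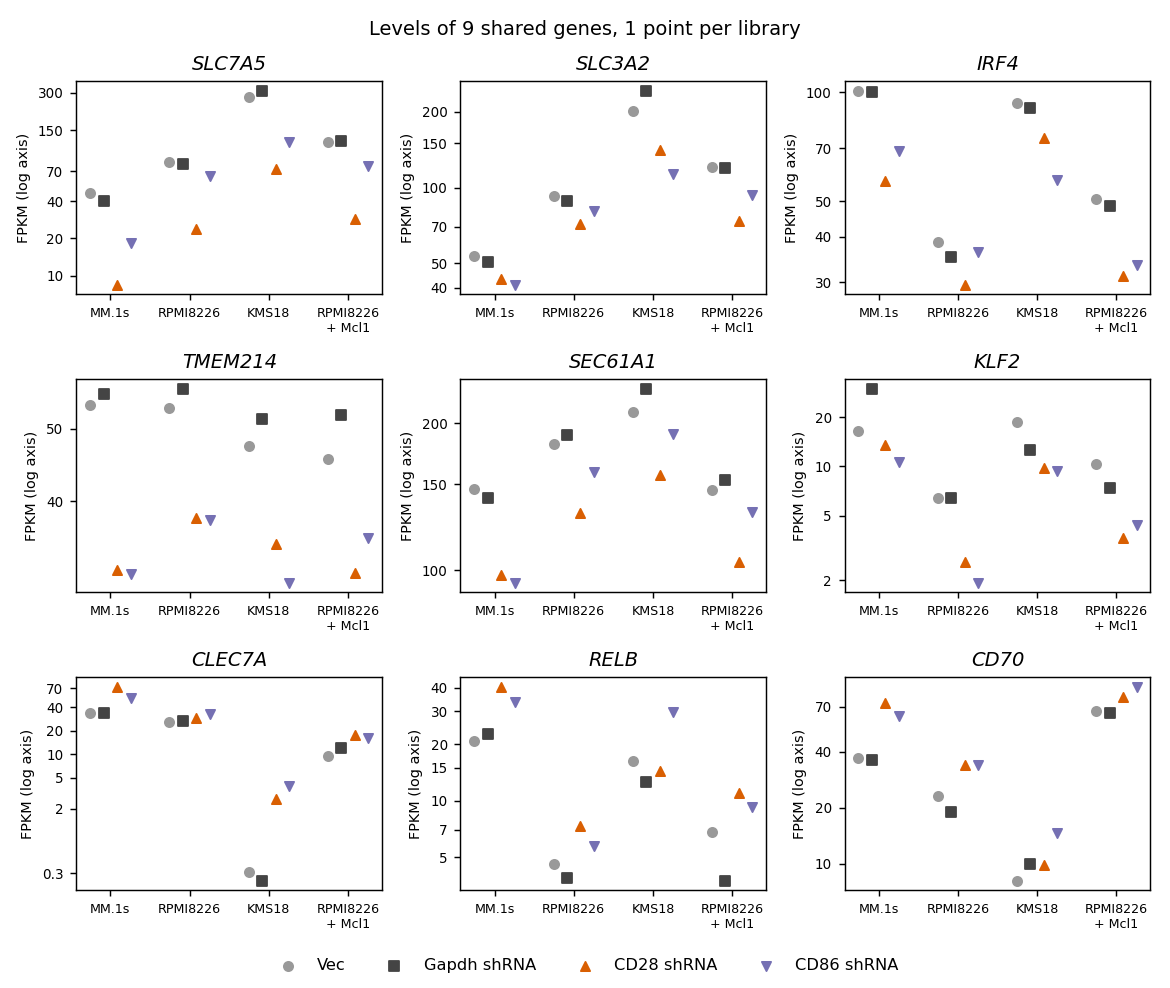
Level of 9 shared genes in FPKM (log axes, each with its own range) in each of the 16 libraries, by background; circles are Vec, squares Gapdh shRNA, upward triangles CD28 shRNA and downward triangles CD86 shRNA. The TMEM214 controls (45.6 to 56.6 FPKM) all lie above the silenced libraries (31.1 to 38.0 FPKM), whereas for IRF4 in RPMI8226 and for RELB and CD70 in KMS18 a hairpin overlaps a control.

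The secretory route of the cell was the other large group of falls. Of 36 genes of the unfolded protein response and of chaperones of the endoplasmic reticulum 6 fell (16.7%, against 0.837% of all tested genes). None rose, and 33 had estimates below 0 (median -0.18). The list did not move equally with each hairpin: its median was -0.04 under CD28 shRNA and -0.36 under CD86 shRNA, both measured against the same controls. Between the controls, the median of the list for Gapdh shRNA minus Vec was 0.07. SDF2L1, a luminal partner of the chaperone BiP, held 37.0 to 80.4 FPKM in controls (median 48.7) and 22.9 to 59.96 FPKM in silenced libraries (median 33.2). Both hairpins lay below both controls in each background, with a change of -0.56 (SE 0.10, adjusted p = 0.0197). The other 5 were MANF, a secreted stress protein (-0.43, adjusted p = 0.0297), FKBP11, a prolyl isomerase abundant in plasma cells (-0.40, 0.0302), PPIB, the luminal cyclophilin B (-0.32, 0.0242), TXNDC11, a thioredoxin-domain protein (-0.28, 0.0237), and XBP1 (-0.20, 0.0384). For MANF and FKBP11 the fall was larger under CD86 shRNA, by 0.30 (adjusted p = 0.0454) and 0.34 (0.00903) on the log2 scale.

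Of 42 genes of translocation, glycosylation and COPII export 6 fell (14.3%, against 0.837% of all tested genes), with a median of -0.13. This list too moved less under CD28 shRNA (median -0.06) than under CD86 shRNA (-0.25). Its median for Gapdh shRNA minus Vec was 0.06. SEC61A1, the channel through which new chains enter the endoplasmic reticulum, held 141 to 235 FPKM in controls (median 167) and 94.3 to 190 FPKM in silenced libraries (median 131). It lay below both controls in each background under both hairpins and fell by 0.41 (SE 0.06, adjusted p = 0.0128). SURF4, a cargo receptor, fell by 0.36 (adjusted p = 0.0112), SEC24A, a cargo-binding coat subunit, by 0.34 (0.0297), SSR3, a subunit of the translocon-associated complex, by 0.32 (0.0393), SEC11C, a signal peptidase subunit, by 0.27 (0.0197) and LMAN2, a lectin receptor for export, by 0.25 (0.0375). The sum of plasma cell markers given above, which includes XBP1 and FKBP11, ranged lower in silenced libraries, with overlap across backgrounds. A part of fewer or less mature plasma cells in these falls was not tested. In bulk libraries, fewer cells with a transcript and less transcript per cell cannot be told apart.

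Promoters of the shared genes were read to see whether elements known from the unfolded protein, amino acid and NF-kB responses were present; the motifs were chosen after the results were seen. RefSeq promoters (GRCh38.p14, 250 bases before to 50 after the start) were matched for 120 of the 157 genes, 76 that fell and 44 that rose. The endoplasmic reticulum stress response element, searched on both strands as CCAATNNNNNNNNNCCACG, was in 0.0806% of all 27305 promoters and in 1 of the 76, that of XBP1, at chr22:28800597-28800626 on the minus strand. The match, in capitals, begins at position -52 from the start.
XBP1: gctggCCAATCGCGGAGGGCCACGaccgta
The C/EBP-ATF element core, TGATGNAA, was in 3.67% of all promoters and in 1 of the 76 (SLC3A2), and the kappa B element, GGGNNTTTCC, was in 1.92% and in 2 of the 76 (FBXO18 and SEC24A). None of the 44 promoters of genes that rose held any of the 3 motifs, and a match is a description of the letters only.

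On the list of plasma cell transcription factors, secretory genes and receptors, 4 of 25 genes fell (16%, against 0.837% of all tested genes). None rose, and the median was -0.14. IRF4, on which myeloma cells depend, held 101 FPKM with Vec and 100 with Gapdh shRNA in MM.1s, against 57.0 with CD28 shRNA and 68.7 with CD86 shRNA. It held 38.7, 35.2, 29.5 and 36.3 FPKM in RPMI8226, 93.3, 90.3, 74.9 and 57.4 in KMS18, and 50.9, 48.5, 31.2 and 33.4 in the Mcl1 line. Both hairpins lay below both controls except in RPMI8226, where CD86 shRNA fell between the controls. The change was -0.48 (SE 0.08, adjusted p = 0.0129, exact permutation p = 0.00309), and -0.17 in RPMI8226 alone. FAM46C, a poly(A) polymerase mutated in myeloma, held 45.2 to 132 FPKM in controls (median 56.1) and 33.2 to 102 FPKM in silenced libraries (median 41.5), with no overlap within any background, and fell by 0.49 (SE 0.08, adjusted p = 0.0131). TNFRSF17, the survival receptor BCMA, fell by 0.41 (SE 0.09, adjusted p = 0.038), and XBP1 is the fourth gene of the list. PRDM1, the repressor Blimp-1, had an estimate of -0.31 (adjusted p = 0.145) and SDC1, the surface marker CD138, of -0.57 (adjusted p = 0.223), and neither passed.

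KLF2, a zinc finger factor regulated by FOXO in lymphocytes, held 16.4, 29.99, 13.5 and 10.7 FPKM with Vec, Gapdh shRNA, CD28 shRNA and CD86 shRNA in MM.1s. In the same order it held 6.43, 6.395, 2.60 and 1.94 FPKM in RPMI8226, 18.6, 12.6, 9.83 and 9.33 in KMS18, and 10.4, 7.38, 3.62 and 4.40 in the Mcl1 line. The controls differed from each other by more in MM.1s than elsewhere, and still both hairpins lay below both of them in every background. KLF2 fell by 0.90 (SE 0.13, adjusted p = 0.0112, exact permutation p = 0.00154), the only one of 24 FOXO factors and targets that passed (4.17%; median 0.06). TGFBR2, a receptor of TGF-beta, fell by 0.78 (SE 0.15, adjusted p = 0.0275). Its change was -0.45 under CD28 shRNA and -1.11 under CD86 shRNA, a difference that passed (adjusted p = 0.00469). LEFTY2, a secreted antagonist of Nodal signalling, fell by 0.55 (SE 0.09, adjusted p = 0.0129) and ZNF275, a zinc finger gene, by 0.59 (SE 0.10, adjusted p = 0.0151). Single falls in other lists were those of CHORDC1, an HSP90 partner, of GABARAP, an autophagy protein, and of the ribosomal protein gene RPS13, which has many processed copies that may share its reads.

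The genes that rose belonged to no common list. CLEC7A, the beta-glucan receptor dectin-1, held 34.1 FPKM with Vec and 34.2 with Gapdh shRNA in MM.1s against 73.4 with CD28 shRNA and 53.2 with CD86 shRNA. It held 26.1, 27.0, 28.8 and 32.9 FPKM in RPMI8226, 0.312, 0.243, 2.65 and 3.93 in KMS18, and 9.51, 11.9, 17.6 and 16.4 in the Mcl1 line. The silenced libraries lay above the controls in each background, narrowly in RPMI8226 and, in KMS18, from 4 to 6 reads in the controls to 41 to 64. The change of CLEC7A was 0.86 (SE 0.16, adjusted p = 0.0242).

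RELB, a subunit of the non-canonical NF-kB pathway, held 20.8, 22.7, 40.6 and 33.4 FPKM in MM.1s, 4.59, 3.86, 7.36 and 5.74 in RPMI8226, 16.3, 12.6, 14.4 and 29.8 in KMS18, and 6.81, 3.75, 11.04 and 9.30 in the Mcl1 line. The hairpins lay above both controls except for CD28 shRNA in KMS18. RELB rose by 0.66 (SE 0.14, adjusted p = 0.0322, exact permutation p = 0.00309) and was the only one of 26 NF-kB pathway genes and targets that passed (3.85%; median 0.16). CD70, the ligand of the receptor CD27, held 8.11 to 65.9 FPKM in controls (median 29.7) and 9.81 to 89.6 FPKM in silenced libraries (median 48.2). It rose by 0.57 (SE 0.09, adjusted p = 0.0129), and in KMS18 CD28 shRNA (9.81 FPKM) lay just below Gapdh shRNA (9.91 FPKM).

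DAG1, which encodes dystroglycan, a receptor for laminin, held 4.37 to 7.30 FPKM in controls (median 6.20) and 5.38 to 14.6 FPKM in silenced libraries (median 10.5). It rose by 0.69 (SE 0.15, adjusted p = 0.0408), by 1.02 under CD28 shRNA and by 0.35 under CD86 shRNA (difference -0.68, adjusted p = 0.00472). The chromatin protein gene MORF4L1 (0.47, adjusted p = 0.0197), the immediate early factor KLF10 (0.42, 0.0129), JAK1, the kinase of several cytokine receptors (0.29, 0.0237), and DICER1, the nuclease that processes small RNAs (0.34, 0.0393), also rose. DICER1 was the only one of 13 genes of the machinery that processes hairpins that passed (7.69%; median 0.06). The remaining rises among the largest were those of CCDC74A (0.67), ANKRA2 (0.60), FAM168A (0.54), DENND6A (0.48), SPOPL (0.47), the microtubule-binding CAMSAP2 (0.46) and TRMT12 (0.43), a tRNA-modifying enzyme. CCDC74A has a near-identical neighbour, CCDC74B, so its count is uncertain.

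Genes of cell death and growth were mostly outside the shared set. None of 12 pro-apoptotic BCL2 relatives (median 0.19), 9 pro-survival members (0.11), 30 p53 genes (0.08), 27 genes of the MYC network (-0.08), 42 of ribosome biogenesis (-0.09), 48 of DNA replication and G1/S (-0.05) or 42 of mitosis (0.08) passed. With 1.38% of all tested genes shared, lists of these sizes would hold few or no shared genes in any case. Estimates lay above 0 in 11 of the 12 pro-apoptotic relatives and 26 of the 30 p53 genes (5952 of all 11348 tested). They lay below 0 in 21 of the 27 MYC network genes. BCL2L1, which encodes BCL-xL, fell under CD28 shRNA by 0.65 (adjusted p = 0.00019) and had an estimate of 0.11 under CD86 shRNA (adjusted p = 0.459). BCL2L11, which encodes BIM, had an estimate of -0.05 under CD28 shRNA (adjusted p = 0.779) and rose by 0.41 under CD86 shRNA (adjusted p = 0.0217). The difference between the hairpins passed for both, at 0.76 (adjusted p = 0.00016) and 0.46 (adjusted p = 0.0109). MCL1 had a pooled estimate of 0.21 (adjusted p = 0.191) and MYC of -0.27 (adjusted p = 0.175). By background, the estimate for MYC was -0.48 (MM.1s), -0.05 (RPMI8226), -0.55 (KMS18) and -0.01 (Mcl1 line). ITGB1, the beta-1 integrin, moved in opposite directions, 0.62 under CD28 shRNA (adjusted p = 0.000986) and -0.83 under CD86 shRNA (adjusted p = 0.000201). ITGB7, the beta-7 integrin, had estimates of -0.02 (adjusted p = 0.953) and -0.55 (adjusted p = 0.0198). Interferon response genes show the same limit of a pooled comparison: none of 29 passed, with a median of 0.25 that was 0.42 under CD28 shRNA and -0.06 under CD86 shRNA.

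**Figure D3:**
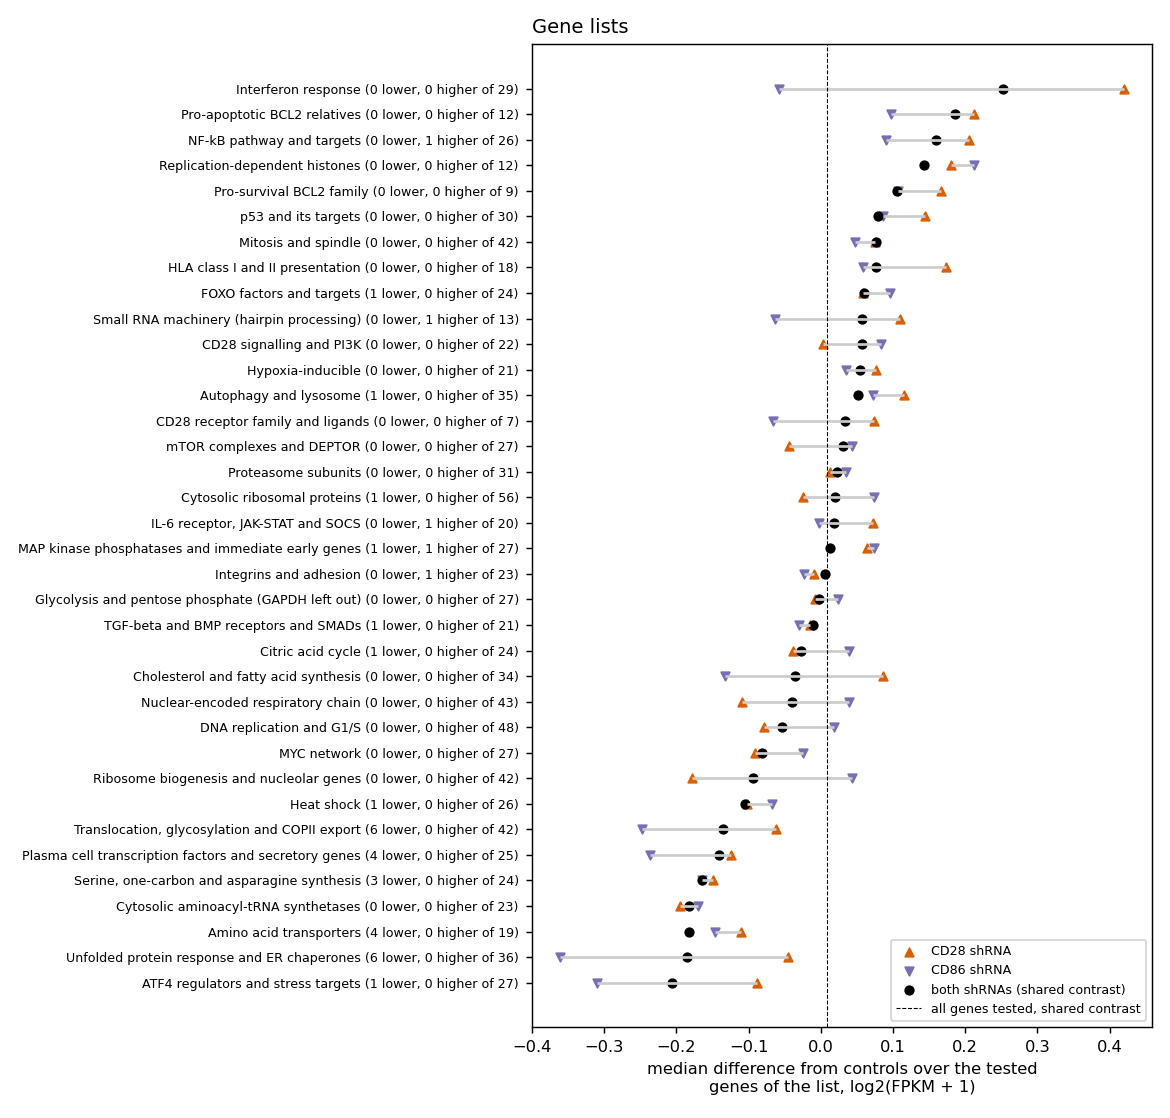
Median difference from the controls, in log2(FPKM + 1), over the tested genes of each list with at least 5 tested genes; upward triangles are CD28 shRNA, downward triangles CD86 shRNA, black points the pooled comparison and the dashed line the median of all tested genes (0.01). The lists of amino acid supply, the endoplasmic reticulum and plasma cell genes lie left of the line under both hairpins, and the interferon response and the unfolded protein response show wide gaps between the hairpins.

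Each hairpin was also compared with the 8 control libraries on its own, in a model with a separate term for each hairpin. CD28 shRNA changed 1387 genes (12.2%) and CD86 shRNA 701 (6.18%), and of the shared genes 135 and 112 passed, 90 of them both. Of all 11348 tested genes 139 passed both, whether in the same or in opposite directions. The choice of members from the same libraries favours their counts. The shared genes that rose had medians of 0.40 under CD28 shRNA and 0.35 under CD86 shRNA, and those that fell -0.41 and -0.39. The hairpins differed directly in 2123 of all tested genes (18.7%) and in 24 of the 157 (15.3%), a share that the choice of members holds down, since a difference between hairpins widens the error of the pooled comparison. Besides those already given, the 24 included CCDC74A, which rose more under CD86 shRNA (by 0.52, adjusted p = 0.0327), and ME2, which fell more under CD28 shRNA (by 0.40, adjusted p = 0.0112). Gapdh shRNA and Vec differed in none of the tested genes in limma (smallest adjusted p 0.367). At an unadjusted p under 0.05 were 579 genes and 5 of the 157, a number that the choice of members holds down in the same way. With limma voom on the recovered reads the count was also 0.

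Because both hairpins were compared with the same controls, libraries were also split so that no control was used by both. With CD28 shRNA set against Vec (137 rose, 1.21%; 325 fell, 2.86%) and CD86 shRNA against Gapdh shRNA (27 rose, 0.238%; 121 fell, 1.07%), MORF4L1 rose in both, TMEM214 and SNORD34 fell in both, and 7 genes, ITGB1 among them, passed in opposite directions. With the controls exchanged (62 rose, 0.546%, and 176 fell, 1.55%, under CD28 shRNA; 11 rose, 0.0969%, and 97 fell, 0.855%, under CD86 shRNA), no gene rose in both, KLF2, PAICS, SLC7A5 and TMEM214 fell in both, and 3 were opposite (ITGB1, BBX and PUDP). The rise in both was 0.73% of the CD28 list and 3.7% of the CD86 list. The shared falls were 0.615% of the CD28 list and 1.65% of the CD86 list in the first split and 2.27% and 4.12% in the second. TMEM214 was in both splits. The splits use the libraries that chose the shared genes and are no separate evidence for them, and SNORD34 had at most 12 reads in a library.

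The backgrounds were compared next. The genes that rose had median changes of 0.43 (MM.1s), 0.31 (RPMI8226), 0.36 (KMS18) and 0.33 (Mcl1 line), and those that fell -0.45, -0.30, -0.49 and -0.39. RPMI8226 thus had the smallest medians in both directions. The response of single genes did not differ between backgrounds past the threshold in any of the 11348 tested (0%) by limma's F-test, with 366 genes and 7 of the 157 at an unadjusted p under 0.05. Neither did it differ between the Mcl1 line and RPMI8226 (0%), with 196 and 4. With 2 silenced and 2 control libraries per background these tests had 8 residual degrees of freedom, and the lack of calls does not show that the responses were alike. The SD of the 4 background changes of a shared gene had a median of 0.14, against 0.15 over all tested genes.

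**Figure D4:**
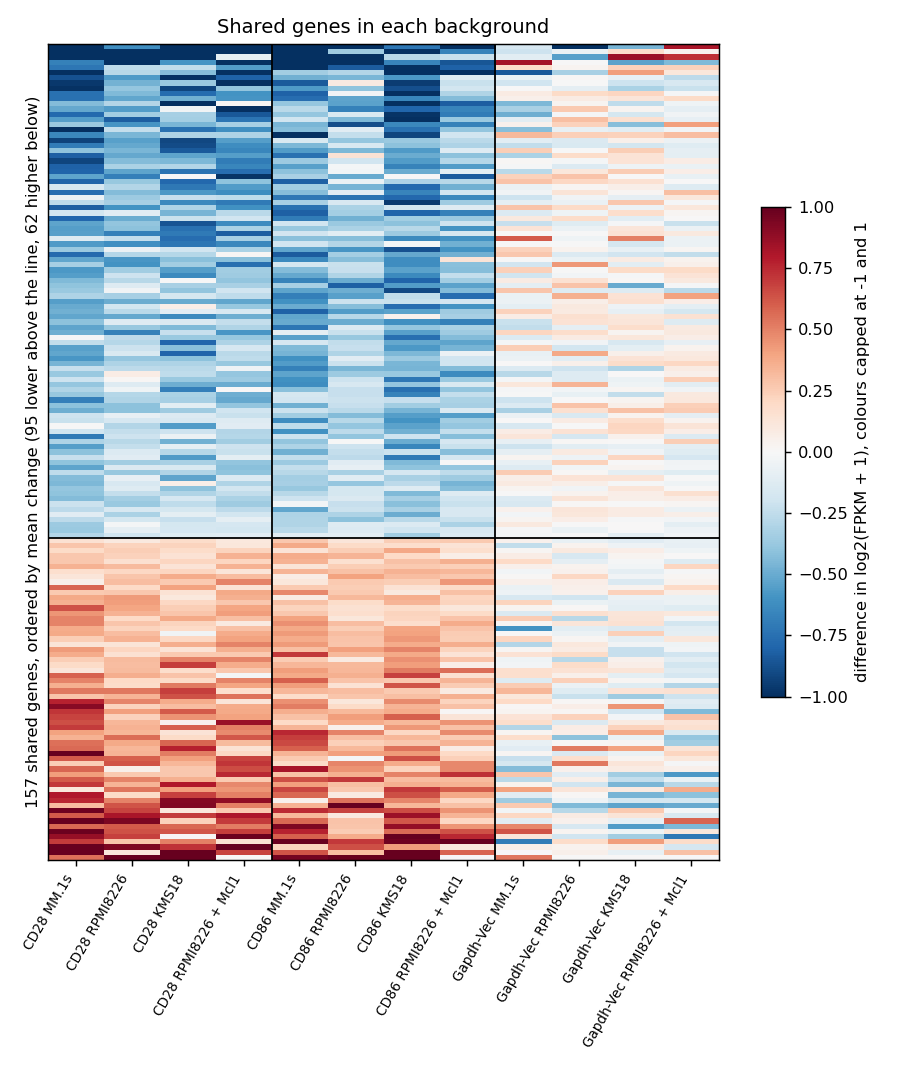
The 157 shared genes in rows, ordered by mean change, and in columns the difference in log2(FPKM + 1) from the mean of both controls for CD28 shRNA and CD86 shRNA in each background, followed by Gapdh shRNA minus Vec; blue is lower, red is higher, and colours end at -1 and 1. The 95 genes that fell and the 62 that rose mostly keep their colour across the silenced columns, as their choice requires. For 17 of them the hairpins were concordant in only 3 backgrounds. The 4 control columns are pale and mixed, with medians of 0.02 and 0.01 for genes that fell and rose. The choice favours pale control columns, since a difference between controls widens the error of the pooled comparison.

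As a check on libraries that took no part in the choice, genes were chosen in 3 backgrounds, at an unadjusted p under 0.001 and with both hairpins on 1 side in at least 2 of the 3, and were then read in the background left out. Of genes that fell in the other 3, both hairpins also lay below the mean of the controls in 49 of 61 in MM.1s (80.3%), 54 of 67 in RPMI8226 (80.6%), 48 of 58 in KMS18 (82.8%) and 41 of 47 in the Mcl1 line (87.2%). The same was true of 23.0%, 25.97%, 27.6% and 27.5% of all tested genes. Of genes that rose, both hairpins lay above in 33 of 40 (82.5%), 20 of 25 (80%), 22 of 31 (71.0%) and 24 of 34 (70.6%), against 29.1%, 30.4%, 28.0% and 27.2% of all tested genes. Direction thus carried over to the left-out background for most of the genes so chosen. RPMI8226 and its Mcl1 derivative share a parent, so that neither was independent of the other. The median change of these genes in the background left out was -0.25 to -0.39 for falls and 0.21 to 0.33 for rises, smaller than in the 3 backgrounds of the choice (-0.43 to -0.48 and 0.34 to 0.50).

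**Figure D5:**
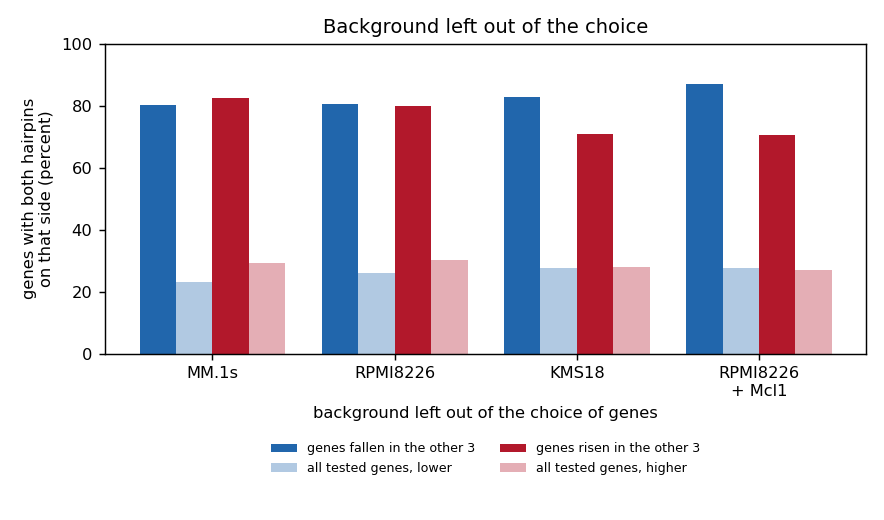
Percent of genes, chosen in 3 backgrounds, for which both hairpins lay on the same side of the mean of the controls in the background left out (dark bars), beside the same percentage of all tested genes (pale bars); blue is lower and red is higher. The dark bars stand between 70.6% and 87.2% and the pale ones between 23.0% and 30.4%.

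The authors' deposited table holds fold changes of each silencing hairpin against Vec, apparently without the Mcl1 line. Over 5256 genes with at least 5 FPKM in every library, the fold changes in the authors' deposited table differed from mean log2 ratios over MM.1s, RPMI8226 and KMS18 by a median of 0.0037 (CD28 shRNA) and 0.0032 (CD86 shRNA) after centring, against 0.0332 and 0.0316 over all 4 backgrounds. At a false discovery rate under 0.05 in the authors' deposited table, 25 of the 62 genes that rose here were higher and 35 of the 95 that fell were lower with CD28 shRNA, beside 2.68% and 2.7% of all its genes. For CD86 shRNA the authors' deposited table has 12 of the 62 higher and 40 of the 95 lower, beside 0.487% and 1.55% of all its genes. None of the 157 was past that threshold in the opposite direction. For SLC7A5 the authors' deposited table gives log2 fold changes of -2.05 with CD28 shRNA and -0.9996 with CD86 shRNA, and for TMEM214 of -0.54 and -0.64. These comparisons use libraries that also chose the shared genes and are no separate evidence.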

How the data were processed

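RNA-seq of 16 libraries was analysed. The authors deposited 1 table of FPKM for 23459 genes with exon lengths. It also holds the authors' log2 fold changes, p-values, false discovery rates and a likelihood-ratio score per comparison; the authors' score was not used. The submitters' processing notes name, with no role given, the builds mm9, hg19 and GRCh37 and the tools edgeR 3.12.1, R 3.2.2, Picard and TopHat2 2.0.13. FPKM times exon length gave whole reads for 100% of values within 0.02 of a read.

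FPKM values were tested with limma 3.58.1 in R 4.3.3 (trended eBayes, log2(FPKM + 1), mean of at least 1 FPKM, background as a block, 11 residual degrees of freedom, two-sided). A model with a term for each hairpin had 9. The labels give the shared background of libraries, and same-background libraries deviated together in all 24 pairs (r 0.885 to 0.954 across genes). limma voom was run on the recovered reads with trimmed-mean library factors. On simulated data of 11348 genes, shared genes were counted, which had to pass the pooled comparison and have concordant hairpins. Of changes of 0.3, 0.6 and 1 shared by both hairpins, 31.3%, 91% and 98.5% were recovered. For changes of these sizes under CD28 shRNA alone the shares were 0%, 0% and 1.52%. Of 10948 genes simulated without a change, 9 (0.0822%) were also counted. Since both requirements applied, the low shares for CD28 shRNA alone cannot be credited to the pooled comparison by itself. The simulation drew independent normal errors for each library and changed few genes, with equal sizes under both hairpins or none under CD86 shRNA. In the data the hairpins differed in 18.7% of tested genes, so these shares are not error rates of the real choice.

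The shared genes, the 37 gene lists and the marker lists were chosen with earlier results of these data known. Genes named were the targets, SLC7A5, IRF4, PRDM1, XBP1, MYC, MCL1, BCL2L1, BCL2L11, ITGB1, ITGB7 and SDC1, the 12 largest rises and the 12 largest falls (at least 5 FPKM, 300 bases, 4 concordant backgrounds), up to 4 per list, and 3 on each side of the threshold. LMAN2, SSR3, PAICS, SNORD34, MIR138-1, SNORA80E, FBXO18, BBX, PUDP and all genes under the other observations were named after their values were seen. Alternatives were other pseudocounts, filters, scalings, controls, designs and left-out libraries.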

Additional observations from a re-analysis of the deposited data

Results flagged for a closer look

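Among the 61 named genes, the 4 changes by background (silenced minus control, log2(FPKM + 1), MM.1s, RPMI8226, KMS18 and the Mcl1 line) were checked for a value far from the others, and 3 genes had one, each in MM.1s. Chance alone sets about 1 in 20 such groups apart. SEC61A1 changed by -0.58 in MM.1s and by -0.37 to -0.35 in the other backgrounds. SEC11C changed by -0.32 in MM.1s and by -0.26 to -0.24 elsewhere. For the target CD28 the value was -0.51 in MM.1s and -0.24 to -0.22 elsewhere. In none of the 3 did the direction differ between backgrounds.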

How the results depend on the processing

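The 157 genes of the pooled comparison became 136 with a pseudocount of 0.1, 158 with 0.5, 189 with a filter of 5 FPKM, 140 after median-of-ratios scaling and 137 after thinning. They became 68 with no filter on low values, 291 (281 shared) with limma voom, 689 (534 shared) with a separate term for each hairpin, 1 (TMEM214) without the background as a replicate block, 0 with Vec as the only control (1027 at an unadjusted p under 0.05), 1 with Gapdh shRNA as the only control, and 1 to 171 with a background or a library left out. Requiring each hairpin to pass on its own left 90 shared genes. CD28 shRNA against the controls (1387) gave 21 without the block and 573 to 851 with a background left out; CD86 shRNA (701) gave 1217 with voom, 5 without the block and 201 to 442. The hairpin difference (2123) gave 30 without the block and 1074 to 1384, the difference of the controls 0 to 2, and the response by background 1 with a pseudocount of 0.1. The pooled estimate for CD86 (-0.08) was 0.051 with Vec as the only control and 0.037 without KMS18, within -0.17 to 0.037 over left-out backgrounds. The causes were not tested. In these settings every tested member kept its sign, which its choice from the same libraries favours. Without the block 69 of the 157 had an unadjusted p under 0.05. At 3914513 to 5900955 reads per library, 62 genes were shared under all 8 other settings of pseudocount, filter, scaling, tool, hairpin terms and thinning, each with 3 concordant backgrounds required, 27 with every single library left out and 1, TMEM214, with every background left out.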

Other observations

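Of the 157 shared genes 123 were in none of the lists, and some of these, chosen after their values were seen, are described here. LAT2, a membrane adaptor of B-cell receptor signalling, held 7.93 to 61.9 FPKM in controls and 5.62 to 38.0 FPKM in silenced libraries. Both hairpins lay below both controls for LAT2 in every background, and it fell by 0.51 (SE 0.08, adjusted p = 0.0129 in limma). NOTCH1, a receptor that acts as a transcription factor once cleaved, fell by 0.48 (adjusted p = 0.0294), though in RPMI8226 CD86 shRNA (14.7 FPKM) lay above Vec (14.4 FPKM). The transcription factors FLI1 (-0.41, adjusted p = 0.0302) and MEF2A (-0.35, adjusted p = 0.034) fell, and so did the potassium channel gene KCNA3 (-0.61, adjusted p = 0.0468). PAICS, an enzyme of purine synthesis, held 78.9 to 119 FPKM in controls and 57.4 to 83.7 FPKM in silenced libraries, which overlap across backgrounds and not within any. It fell by 0.51 (adjusted p = 0.0129), and more under CD28 shRNA than under CD86 shRNA (difference 0.35, adjusted p = 0.00351). TRAM1 (-0.26, adjusted p = 0.0242) and TRAM2 (-0.48, adjusted p = 0.0384), which act at the translocation channel, and SLC33A1, the acetyl-CoA carrier of the endoplasmic reticulum (-0.46, adjusted p = 0.0242), fell as well.

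Among rises, RAB11FIP1, an effector of recycling endosomes, held 1.88 to 3.86 FPKM in controls and 3.32 to 6.62 FPKM in silenced libraries. Both hairpins lay above both controls in every background, and it rose by 0.64 (SE 0.10, adjusted p = 0.0112). TNFSF10, the death ligand TRAIL, rose by 0.57 (adjusted p = 0.0384) on 6 to 96 reads per library. In the Mcl1 line TNFSF10 measured 0.31 FPKM with Vec, 0.966 with Gapdh shRNA, 1.60 with CD28 shRNA and 0.849 with CD86 shRNA, so that CD86 shRNA lay between the controls. The SRC-family kinase gene YES1 (0.54, adjusted p = 0.0393) and MR1, which presents microbial metabolites to T cells (0.40, adjusted p = 0.0466), also rose.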
